A study of Mus musculus with 23 samples.

Results

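RUNX1-ETO was induced in blast culture on day 1, and CD41+KIT+Tie2- progenitors were sorted from it on day 2. These are the cells that leave the haemogenic endothelium as floating blood progenitors. Their gene expression was compared between 2 induced and 2 uninduced arrays. The comparison takes the arrays titled as biological replicates 1 and 2 of the progenitors with and without doxycycline (Dox), which are 4 of the 23 arrays of the study, and covers all 15202 genes that could be tested. A further uninduced progenitor array is shown beside them and entered no test, since its title marks it as technical while its source name numbers it as replicate 3. Separate cultures behind the replicates are not stated, so that P values measure the spread between arrays.

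The study followed mouse embryonic stem (ES) cells through blood specification in blast culture. All cells came from 1 ES line, labelled C57BL/6, in which a TET-responsive promoter drives an HA-tagged human RUNX1-ETO cDNA while the endogenous Runx1 genes are wild type. Induced cells received 0.1 μg per ml Dox from day 1 of blast culture and were sorted on day 2 beside uninduced cells without Dox, by KIT and CD41 on the surface and absence of Tie2. The paper places the induction of these progenitors at the haemogenic endothelium stage and reports that very few Tie2- floating cells then formed. Whether a difference in which cells reached the progenitor stage had a part in the changes was not tested. The other stages, each with 3 induced and 3 uninduced arrays, were haemogenic endothelium (HE), HE2 (CD41+ cells that still carry Tie2) and myeloid progenitors, which had been expanded from KIT+CD41+ cells with cytokines and induced for 12 h. No array of Dox-treated cells without the transgene was analysed here, so that effects of Dox itself and of the fusion protein cannot be told apart.

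RUNX1 is the DNA-binding transcription factor (TF) that endothelial cells need in order to turn into blood cells. As it accumulates, genes of the blood lineages are switched on and the endothelial programme is shut down. The t(8;21) translocation of acute myeloid leukaemia joins its DNA-binding domain to ETO (RUNX1T1), a protein that recruits corepressor complexes, and the fusion protein can occupy the sites of RUNX1.

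RNA was hybridised in 1 colour to Agilent mouse arrays, and values below are log2 intensities after quantile normalization. A change is the induced minus the uninduced mean on this scale, given with its standard error from limma. A gene was called where its unadjusted P did not exceed 0.001 and its change reached 2-fold, and the adjusted P values (Benjamini-Hochberg, over all genes tested) of the called genes went up to 0.0250. Spots well above background made up 71.0 and 67.5% of the uninduced arrays, 65.6 and 48.8% of the induced arrays and 54.7% of the additional array. Uninduced and induced array 1 shared slide 1, uninduced array 2 lay on slide 2, and induced array 2 shared slide 3, scanned on another day, with the additional array and all myeloid progenitor arrays. Over genes, the uninduced arrays correlated with each other at 0.987, the induced arrays at 0.976, and the additional array at 0.983 with both uninduced arrays. Between the sides, induced array 1 correlated at 0.979 with uninduced array 1 of its slide and at 0.970 with uninduced array 2. Induced array 2 correlated at 0.974 with the additional array of its slide and at 0.961 with both uninduced arrays. Slide mates from opposite sides were thus about as alike as the induced arrays were to each other.

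The sorted identity was checked at the level of RNA. All 8 sort and identity genes were well above background on all 5 arrays and 0 of them were called. Kit, the stem cell factor receptor, gave 13.37 and 14.06 on the uninduced arrays and 13.33 and 12.91 on the induced arrays. The induced arrays were below both of these, but induced array 1 was above the additional uninduced array (12.98), and the change of -0.60 was not called (limma adjusted P = 0.389). Itga2b, which encodes CD41, gave 11.91 and 11.42 uninduced, and the induced arrays, at 10.41 and 12.67, lay on either side of both. Tek, which encodes the Tie2 receptor used to exclude cells in the sort, was measurable nonetheless, at 8.71 and 8.63 uninduced, 9.49 on the additional array, and 10.91 and 11.29 induced. The change of Tek was 2.43 ± 0.88 and was not called (limma adjusted P = 0.124).

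The probe for Runx1t1, the mouse ETO gene, was not tested for whether it reads the human transgene. It is therefore no check of the induction. It read 7.92 and 7.50 on the uninduced arrays, 7.86 on the additional array, and 11.05 and 12.30 on the induced arrays. The induced arrays stood clearly above the others, with a change of 3.96 ± 0.41 or 15.6-fold (limma adjusted P = 1.17e-05). Whether RNA of the transgene or of the mouse gene rose was not tested. The same probe averaged 10.81 in uninduced HE and 9.88 in uninduced HE2, above the uninduced progenitors, and 12.05 and 11.96 there after induction. Its change was 1.24 in HE, where it was not called, and 2.08 in HE2, where it was. Runx1 itself stayed between 13.81 and 14.38 on all 4 arrays and was not called (-0.11 ± 0.43, limma adjusted P = 0.924). Its other probe, which was dimmer, changed by 0.54. Whether either Runx1 probe reads the RUNX1 part of the transgene was not tested. Runx1t1 was the only called member among the 6 genes tested of the RUNX and ETO families, and neither Cbfb, the partner subunit of RUNX proteins, nor Cbfa2t3, an ETO relative, was called (limma adjusted P = 0.514 and 0.314).

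With Dox, 460 genes rose and 107 fell, which is 3.03 and 0.704% of the genes tested. Rises were also larger than falls. The median called rise was 1.84 on the log2 scale and the median called fall -1.45, 199 genes rose at least 4-fold against 5 that fell as much, and 60 rose at least 8-fold against 0. For every called gene the 2 induced arrays were both above or both below the 2 uninduced ones, and over all genes tested this held for 22.6% above and 26.3% below. With 2 arrays a side an exact permutation test cannot give a P below 0.333, so that these calls rest on a spread shared with the other stages, and a fit to the 4 arrays alone called 201 rises and 15 falls. Falls depended most on single arrays: 31 were called without induced array 2, of which 17 were among the 107, and 289 without induced array 1, of which 82 were. With slide as a block, 306 rises (257 of them among the 460) and 25 falls (16 of them among the 107) were called.

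**Figure D1:**
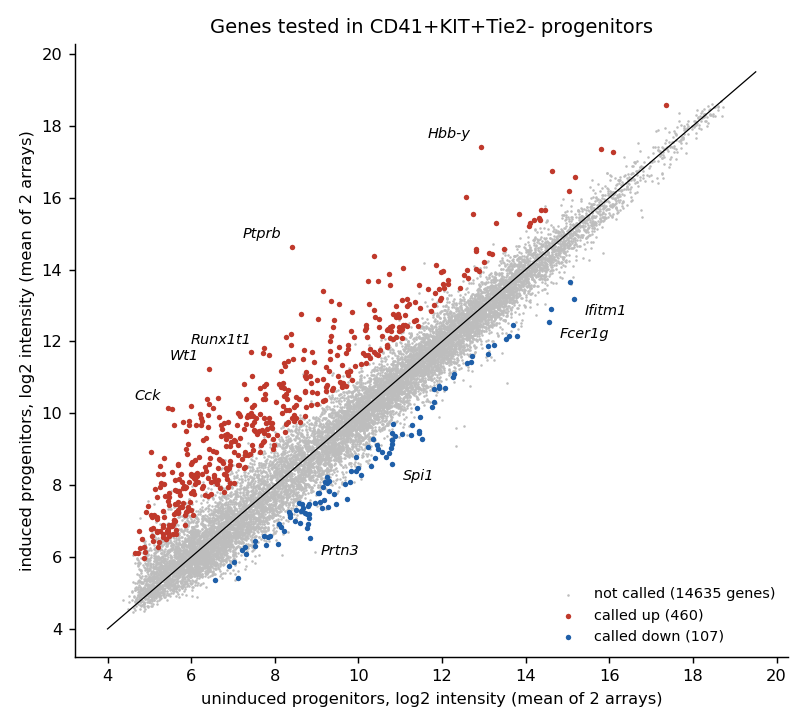
Mean log2 intensity of the 15202 genes tested in induced (y axis, 2 arrays) against uninduced progenitors (x axis, 2 arrays), with genes called up in red, called down in blue and the line of equal level in black. The 460 rises reach farther from the line than the 107 falls, with Ptprb at 8.42 uninduced and 14.63 induced.

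The pair of arrays on slide 1 and the pair on slide 3, where the additional array stands for the uninduced side, gave the change within a slide. All 460 rises were higher on slide 1 and 456 on slide 3, and 375 were at least 2-fold higher on both, compared with 3.50% of all genes tested. All 107 falls were lower on both slides, and 59 were at least 2-fold lower on both, compared with 0.842% of all genes. The median rise was 1.70 on slide 1 and 2.03 on slide 3, and the median fall -1.13 and -1.32. Since the arrays of slide 1 and induced array 2 also made the calls, only the additional array is new here.

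**Figure D2:**
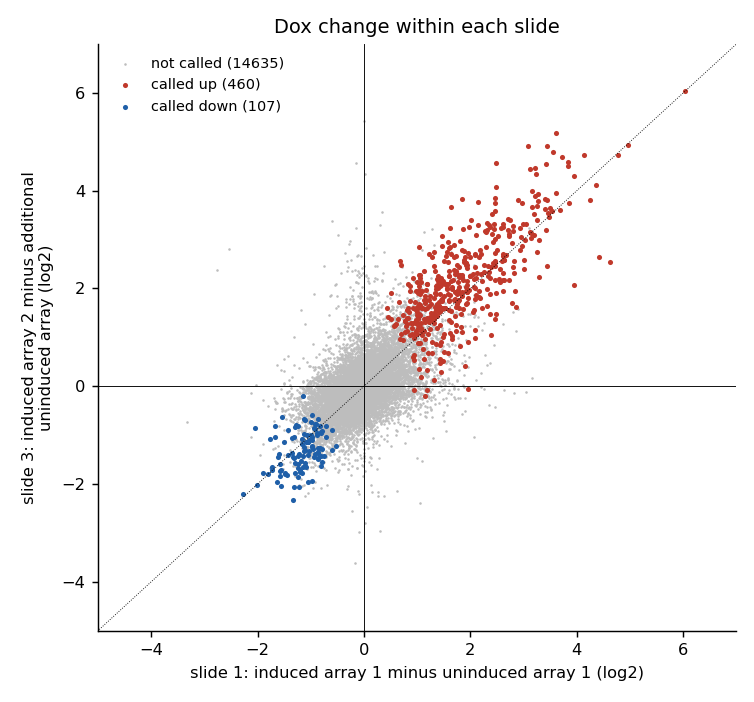
Change of each gene on slide 1 (x axis, induced array 1 minus uninduced array 1, log2) and on slide 3 (y axis, induced array 2 minus the additional uninduced array, log2), with called rises in red and called falls in blue. The medians of the rises are 1.70 and 2.03 and those of the falls -1.13 and -1.32, and 4 rises are not higher on slide 3.

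The steepest rise of all was that of Ptprb, which encodes the endothelial phosphatase VE-PTP that acts on Tie2 and VE-cadherin. It read 8.49 and 8.35 uninduced, 8.69 on the additional array, and 14.52 and 14.73 induced. The 3 uninduced values differ by less than 0.5 and the induced arrays lie far above them, at a change of 6.21 ± 0.34 or 73.8-fold (limma adjusted P = 1.01e-08). Among the next 11 were 3 more genes of vessels and cell guidance. Stab1, a scavenger receptor of sinusoidal endothelium and macrophages, rose by 4.26 ± 0.39, Sema3f, a secreted guidance cue, by 4.07 ± 0.39, and Cldn5, a claudin of endothelial tight junctions, by 4.02 ± 0.63.

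The others of the 12 came from very different programmes. Wt1, a zinc finger TF that is often highly expressed in leukaemia, read 7.18 and 5.69 uninduced and 10.78 and 11.71 induced. Its uninduced arrays spread widely, but both lay well below the induced arrays (4.81 ± 0.53, limma adjusted P = 3.03e-05). The precursors of 3 neuropeptides rose, with Pnoc (nociceptin) at 4.69 ± 0.35, Cck (cholecystokinin) at 4.59 ± 0.48 and Trh (thyrotropin-releasing hormone) at 4.21 ± 0.44. Cck was near the bottom of the scale at 5.25 and 5.81 uninduced, and at 10.22 and 10.03 induced. Hdc, the enzyme that makes histamine, Adra2a, an adrenergic receptor, and the integrin gene Itga8 rose by 4.25 ± 0.53, 4.12 ± 0.42 and 4.09 ± 0.50, and the embryonic globin gene Hbb-y by 4.47 ± 0.39. All 12 genes were called under each of the 17 alternative settings, including those that left out an array.

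Among the 12 largest falls were several genes that myeloid cells are known to use. Prtn3, the neutrophil granule protease proteinase 3, read 8.51 and 9.17 uninduced, 9.02 on the additional array, and 6.23 and 6.81 induced. The arrays of each side stay together with a gap between them, at a change of -2.32 ± 0.39 or 4.99-fold lower (limma adjusted P = 0.00155). Spi1, which encodes the myeloid master TF PU.1, read 11.05 and 10.58 uninduced, 10.14 on the additional array, and 9.05 and 8.13 induced. It fell by 2.23 on the log2 scale (SE 0.45, limma adjusted P = 0.00505), but its call was lost without uninduced array 1, without induced array 2, with slide as a block and in the fit to the 4 arrays. Fcer1g, the signalling chain shared by Fc receptors, fell from 14.06 and 15.05 to 12.75 and 12.34, and its call was lost under 6 of the 17 settings. Ncf1, a subunit of the phagocyte oxidase, read 11.45 and 11.44 uninduced against 9.88 and 9.14 induced (-1.94 ± 0.30), and Fmnl1, a leukocyte formin, 9.64 and 9.83 against 7.84 and 7.41 (-2.11 ± 0.26).

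The other 7 of the 12 lay between -2.23 and -1.88. They were Nrgn, a calmodulin-binding protein, the membrane protein Basp1, the leucine-rich repeat gene Lrrc25, the interferon-induced transmembrane genes Ifitm1 and Ifitm6, the potassium channel gene Kcnk12 and the chemokine Ccl4. Only Prtn3, Nrgn, Fmnl1 and Kcnk12 of the 12 were called under all 17 alternatives.

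**Figure D3:**
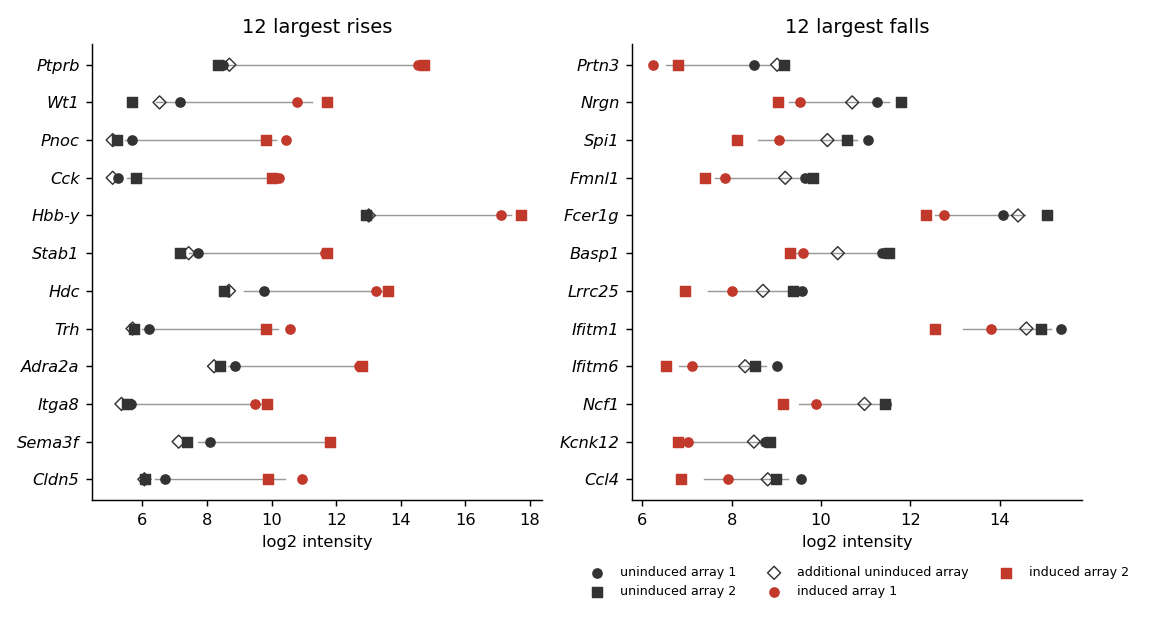
Log2 intensity (x axis) of the 12 largest rises (left) and 12 largest falls (right) on each array, with uninduced arrays in black, the additional uninduced array as an open diamond and induced arrays in red, and a grey line between the group means. Induced arrays lie to the right of all 3 uninduced arrays for each rise and to the left for each fall. The additional array of Basp1, at 10.37 against 11.36 and 11.52, lies about midway between the groups.

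Promoter windows in the RefSeq table of GRCm38.p6, from 250 bases before to 50 bases after a gene's start, were searched for the core of the RUNX binding motif, TGTGGT, on both strands (ACCACA on the other). The first window of a gene held it in 16.9% of all genes of that table and in 13.1% of the 12066 genes tested that have a window. Among the genes that rose it was in 40 of 344 (11.6%), and among those that fell in 20 of 85 (23.5%). Of the 12 largest rises 8 had a window and 0 held the motif, and of the 12 largest falls 9 had a window and 3 held it. These 3 windows are shown because they belong to leading falls, each 5′ to 3′ along the minus strand that carries the gene, with the motif in capitals.
Fcer1g, chr1:171234300-171234599: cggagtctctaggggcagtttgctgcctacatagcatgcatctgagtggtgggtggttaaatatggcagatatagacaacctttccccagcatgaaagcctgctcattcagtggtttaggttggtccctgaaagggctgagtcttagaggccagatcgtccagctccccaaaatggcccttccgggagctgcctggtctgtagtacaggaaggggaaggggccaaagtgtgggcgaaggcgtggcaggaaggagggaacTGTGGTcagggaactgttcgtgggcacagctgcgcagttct
Ifitm6, chr7:141016843-141017142: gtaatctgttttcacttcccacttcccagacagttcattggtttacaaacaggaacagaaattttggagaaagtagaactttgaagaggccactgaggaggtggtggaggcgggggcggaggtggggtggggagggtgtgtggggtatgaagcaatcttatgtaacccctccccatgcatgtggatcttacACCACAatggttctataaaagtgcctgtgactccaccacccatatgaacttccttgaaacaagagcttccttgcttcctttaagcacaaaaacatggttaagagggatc
Basp1, chr15:25413715-25414014: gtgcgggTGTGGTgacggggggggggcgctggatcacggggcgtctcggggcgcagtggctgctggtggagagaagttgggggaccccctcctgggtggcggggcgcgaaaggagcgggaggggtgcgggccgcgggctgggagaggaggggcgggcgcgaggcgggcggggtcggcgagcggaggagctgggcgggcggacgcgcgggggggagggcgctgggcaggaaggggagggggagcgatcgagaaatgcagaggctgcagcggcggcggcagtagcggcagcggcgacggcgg
Counted from the gene's start, the motif began at position 9 in Fcer1g, -59 in Ifitm6 and -243 in Basp1. A match of these letters is a description of the window and does not show that a protein binds there.

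Endothelial genes rose as a group, in a list that, like those below, was chosen with earlier results of these data known. Of 32 tested, 16 were called up and 0 down, against 3.03% of all genes, and the median change over the 32 was 1.48 compared with -0.04 over all genes. In 31 of the 32 the induced mean was the higher one. Sox7, an endothelial TF, read 7.95 and 6.96 uninduced against 11.17 and 10.88 induced, and Sox17, a TF of arterial and haemogenic endothelium, 6.89 and 6.94 against 8.73 and 9.47. Neither gene's arrays overlapped, at changes of 3.57 ± 0.39 and 2.18 ± 0.37 (limma adjusted P = 1.57e-05 and 0.00120). Icam2, an adhesion molecule of endothelium, rose by 3.21 ± 0.33, Ramp2, a partner of the adrenomedullin receptor, by 3.44 ± 0.29, and Robo4, an endothelial guidance receptor, by 3.09 ± 0.41. Emcn, Mmrn2, Nos3, Esam, Thbd, Flt1, Egfl7, Vwf and Ecscr rose as well, by 1.21 to 3.51.

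Not every defining endothelial gene rose. Cdh5, which encodes VE-cadherin, read 12.58 on both uninduced arrays and 13.06 and 12.29 on the induced arrays, which lie above and below it (0.10 ± 0.31, limma adjusted P = 0.896). Kdr, the VEGF receptor, read 12.67 and 12.84 uninduced, 13.77 on the additional array, and 13.63 and 14.55 induced. Its induced array 1 thus lay below the additional array. Its change of 1.33 ± 0.37 was not called (limma adjusted P = 0.0403), with -0.77 on its other probe. Pecam1, at 0.68 ± 0.88, was not called either (limma adjusted P = 0.723). The summed intensity of the 32 genes was 16.83 to 16.93 on the 3 uninduced arrays and 18.53 and 18.65 on the induced arrays (log2), and 30 to 32 of them were well above background on each array. In sorted bulk cells, more endothelial-like cells within the gate and more RNA of these genes per cell cannot be told apart. The count of called endothelial genes was 10 to 17 under the settings that kept the threshold and were compared here, with 10 when slide was a block.

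Genes of the Notch pathway and of arterial cells gave 4 rises and 0 falls among 21, against 3.03% of all genes called up. Efnb2, the arterial ephrin ligand, rose from 7.43 and 7.19 to 9.98 and 9.45 (2.41 ± 0.44, limma adjusted P = 0.00223). The receptor Notch4, the arterial connexin Gja4 and the Notch target Nrarp rose by 1.49 ± 0.35, 1.38 ± 0.31 and 1.04 ± 0.25. The other probe of Efnb2 changed by -0.52, and with the mean of both probes the change was 0.94 and no longer called. None of the 4 genes was called without induced array 1.

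Erythroid genes gave 9 rises and 0 falls among 21, against 3.03% of all genes called up. Hbb-y, the embryonic globin, read 12.96 and 12.91 uninduced, 13.01 on the additional array, and 17.09 and 17.73 induced. The 3 uninduced arrays nearly coincide and the induced arrays lie 22.2-fold above them (4.47 ± 0.39, limma adjusted P = 1.90e-06). Alas2, which starts haem synthesis in red cells, rose from 10.60 and 10.12 to 14.16 and 14.60 (4.02 ± 0.53, limma adjusted P = 0.000131). The globin genes Hbb-bt, Hbb-b2 and Hbb-bh1 rose by 2.98 ± 0.43, 2.32 ± 0.35 and 1.21 ± 0.26, although probes of near-identical globin genes may read each other's transcripts. Membrane and cytoskeletal genes of red cells rose too, with Slc4a1 (band 3) at 2.56 ± 0.57 and Epb42 at 2.00 ± 0.30. The water channel gene Aqp1, counted in this list, rose by 2.61 ± 0.62 but differed from Hbb-y over the stages. Without Dox its mean was 13.01 in HE, 11.36 in HE2 and 6.19 in progenitors, where that of Hbb-y was 11.24, 11.82 and 12.94. Aqp1 was also called as risen in myeloid progenitors, by 2.07, and Hbb-y was not. The call of Aqp1 was lost under 8 of the 17 alternatives, with a change of 1.57 without induced array 2, that of Hbb-bh1 under 6, and that of Slc4a1 with slide as a block, without uninduced array 2 and without induced array 2.

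Other erythroid genes did not pass. Klf1, the erythroid master TF, read 9.44 and 10.48 uninduced against 9.96 and 10.53 induced, with overlapping arrays (0.29 ± 0.37, limma adjusted P = 0.716), and the embryonic alpha-like globin gene Hba-x changed by 0.45 ± 0.52 (limma adjusted P = 0.683). The summed intensity of the 21 genes was 18.06 to 18.30 on the 3 uninduced arrays and 19.25 and 19.72 on the induced arrays, with 20 or 21 genes well above background on each. Whether more erythroid cells within the gate had a part in these rises was not tested.

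Megakaryocyte and platelet genes gave 7 rises and 0 falls among 25, against 3.03% of all genes called up. One of the 7 was Vwf, which is also counted with the endothelial genes. Treml1, a receptor of platelet granules, read 8.21 and 9.85 uninduced, 9.76 on the additional array, and 11.90 and 13.37 induced. Its arrays spread by more than 1 within each side but did not overlap (3.60 ± 0.66, limma adjusted P = 0.00249). Tubb1, the tubulin of platelets, rose by 2.85 ± 0.52, the platelet receptor gene Clec1b by 2.11 ± 0.33, Gp5 by 1.85 ± 0.30 and F2rl2 by 2.23 ± 0.42. Pf4, platelet factor 4, read 9.17 and 10.48 uninduced and 7.73 and 9.48 induced, with overlapping arrays (-1.22 ± 0.52, limma adjusted P = 0.196). The median change over the 25 genes was 0.11, and none of the 7 was called in the fit to the 4 arrays alone.

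Mast cell, basophil and eosinophil genes gave 3 rises among 10 tested, Hdc, Cpa3 and Il1rl1, against 3.03% of all genes called up. The list held 19 genes, of which 18 were on the array. Those not tested, among them Mcpt8, Fcer1a and Epx, did not reach the level for testing on any array or had no probe. Il1rl1, the IL-33 receptor, read 8.37 and 8.41 uninduced and 11.83 and 12.57 induced, with no overlap (3.81 ± 0.52, limma adjusted P = 0.000178). Cpa3, the mast cell carboxypeptidase, rose by 2.28 ± 0.40. The other 7 tested genes did not pass, and the median change of the 10 was 0.07. All 3 were called under each of the alternatives.

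**Figure D4:**
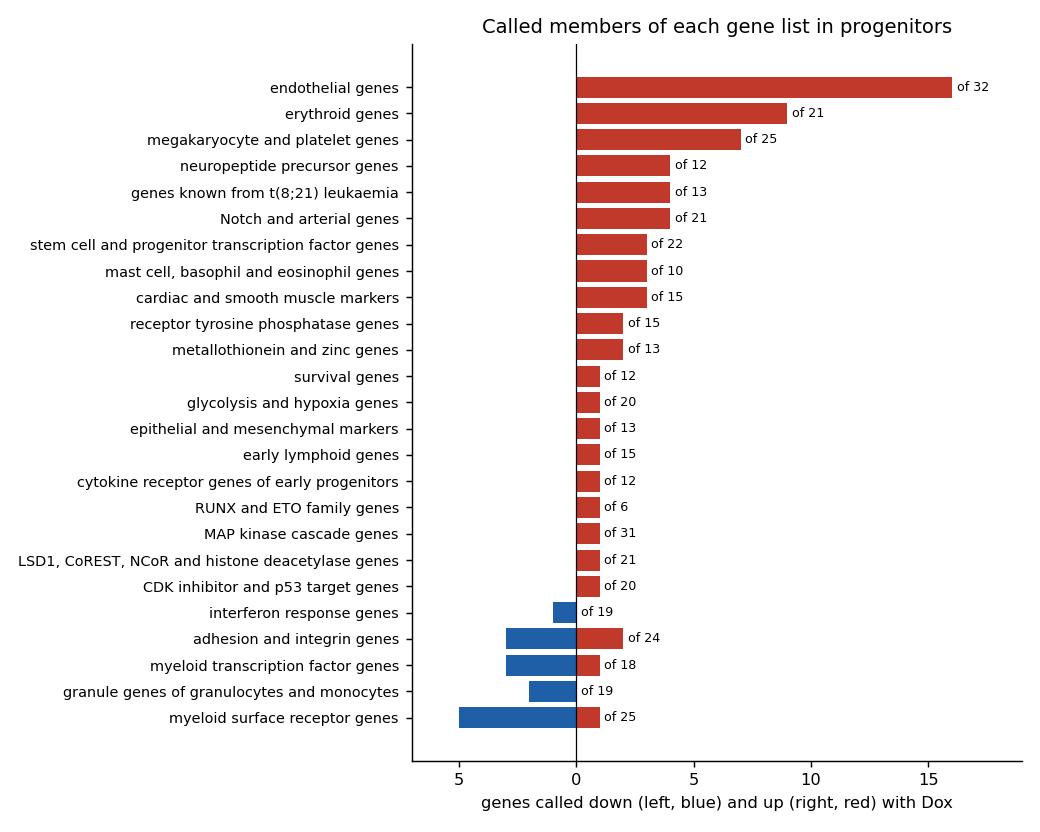
Number of genes called up (right, red) and down (left, blue) with Dox in each gene list that held a called gene, with the number tested written beside each bar. Endothelial genes lead with 16 rises of 32, followed by erythroid genes with 9 of 21, and myeloid surface receptor genes hold the most falls, 5 of 25. Over all genes tested, 3.03% were called up and 0.704% down.

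Myeloid TF genes gave 3 falls and 1 rise among 18, against 0.704% of all genes called down and 3.03% called up. Besides Spi1, Cebpe, a TF of granulocyte maturation, fell from 9.16 and 9.09 to 7.60 and 7.15 (-1.75 ± 0.25, limma adjusted P = 0.000295). It was called under all 17 alternatives, while the call of Irf5 (-1.18 ± 0.29) was lost under 8 of them. Cebpa, which drives granulocyte commitment, read 8.82 and 8.38 uninduced, 9.04 on the additional array, and 7.39 and 7.22 induced. Its arrays did not overlap, but the change of -1.29 ± 0.49 was not called (limma adjusted P = 0.145). Cebpb, at -1.32 ± 0.53, was not called either (limma adjusted P = 0.164). Klf4, a TF of monocytes and of quiescent endothelium, rose from 9.59 and 9.02 to 10.94 and 11.43 (1.88 ± 0.26, limma adjusted P = 0.000237).

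For the lists that follow, the shares over all genes were 3.03% called up and 0.704% called down. Granule genes gave 2 falls, Prtn3 and Ncf1, and 0 rises among 19, and the induced mean was the higher one in 2 of the 19. Mpo (myeloperoxidase) and Elane (neutrophil elastase) gave changes of -0.75 ± 0.45 and -1.15 ± 0.48 and were not called (limma adjusted P = 0.366 and 0.186). The summed intensity of the granule genes was 16.08 to 16.26 on the 3 uninduced arrays and 15.68 and 15.45 on the induced arrays. Myeloid surface receptors gave 5 falls and 1 rise among 25, the falls being Fcer1g, the fractalkine receptor gene Cx3cr1 (-1.57 ± 0.37), the sialic acid-binding receptor gene Cd33 (-1.18 ± 0.26) and the inhibitory receptor genes Pirb (-1.13 ± 0.26) and Fcgr2b, which fell from 7.45 and 7.12 to 6.74 and 5.82. None of these 5 was called with slide as a block or without induced array 2. The rise was that of Mrc1, the mannose receptor of macrophages and some endothelium, from 5.81 and 5.95 to 8.52 and 9.47 (3.11 ± 0.52). Among 24 adhesion and integrin genes, 3 fell and 2 rose. Selplg, an adhesion protein gene of leukocytes, fell by 1.45 and the hyaluronan receptor gene Cd44 by 1.23 on the log2 scale, but both calls were lost under 6 of the 17 alternatives, including slide as a block and the fit without induced array 2. With the mean of all probes Cd44 changed by -0.41, and 2 of its 3 other probes were not lower (0.11 and 0.28). Fn1 (fibronectin) rose by 2.13 ± 0.24 and Itga9 by 1.90 ± 0.34.

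Of 22 TF genes of stem cells and progenitors, 3 rose and 0 fell, against 3.03% of all genes called up. Fli1, an ETS factor of blood and endothelium, read 12.01 and 12.03 uninduced, 12.52 on the additional array, and 13.25 and 13.95 induced. The induced arrays were the highest of the 5 (1.58 ± 0.24, limma adjusted P = 0.000434). Meis1 and Hhex, homeobox genes of progenitors, rose by 1.53 ± 0.38 and 1.31 ± 0.22, and the call of Meis1 was lost under 7 of the 17 alternatives. Erg and Gata2 were not called, at 0.38 ± 0.38 and 0.64 ± 0.36 (limma adjusted P = 0.627 and 0.335).

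Genes known from t(8;21) leukaemia gave 4 rises and 0 falls among 13, against 3.03% of all genes called up. Beside Wt1 and Trh, these were Ncam1, which encodes the adhesion molecule CD56, from 8.12 and 7.31 to 10.49 and 10.31 (2.68 ± 0.32, limma adjusted P = 4.15e-05, with 1.01 and -0.29 on its other probes), and the signalling phosphatase gene Ubash3b (1.21 ± 0.24). Pou4f1, a TF gene expressed in this leukaemia, read 9.73 and 9.45 uninduced and 9.12 and 8.20 induced and was not called (limma adjusted P = 0.291). Cd34 was high and even, between 16.18 and 16.45 on all 4 arrays. Neuropeptide precursors gave 4 rises and 0 falls among 12 tested of 18 listed, against the same 3.03%. Pnoc, Cck and Trh were already among the largest rises when this list was chosen, so that nothing is read from the share. The remaining rise was that of Nts (2.27 ± 0.55), whose call was lost under 9 alternatives.

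Several lists held 0 or 1 called gene, counts from which nothing is read beside the 3.03% of all genes called up and 0.704% called down. Among 28 cell cycle genes, 24 AP-1 and early response genes, 18 genes of ribosome biogenesis and 12 of antigen presentation, 0 were called. Single genes were called among those of the MAP kinase cascade (Rasgrp3, 1 of 31), corepressor and deacetylase complexes (Hdac7, 1 of 21), glycolysis and hypoxia (Vegfa, 1 of 20), the p53 pathway (Sesn1, 1 of 20) and survival (Bik, 1 of 12), all higher with Dox. The interferon response gave 1 fall of 19, Irf1. The next lists held more than 1 called gene. Metallothionein and zinc genes gave 2 rises of 13, with Mt2 at 2.19 ± 0.35. Cardiac and smooth muscle markers gave 3 rises of 15 (Hand2, Tnni1 and Tnnt2, by 1.84 to 2.92). Their summed intensity, 14.82 and 14.44 uninduced against 14.66 and 14.35 induced, overlapped. The additional array, at 13.72, lay below induced array 2 of the same slide.

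The transition from HE to HE2 without Dox has no array in common with either side of the progenitor comparison, although all arrays shared the normalization and the estimate of the spread. In that transition 364 genes rose and 406 fell, 2.39 and 2.67% of the genes tested. Of the 460 genes that rose with Dox in progenitors, 113 (24.6%) had fallen from HE to HE2 and 11 (2.39%) had risen. Of the 107 genes that fell with Dox, 43 (40.2%) had risen from HE to HE2 and 0 had fallen. Among the 16 called endothelial genes 10 had fallen, among them Ptprb, Sox7, Sox17, Icam2 and Robo4, and among the 12 largest falls 9 had risen, Spi1 by 3.29 and Fcer1g by 3.91. The mean of Ptprb was 14.48 in uninduced HE, 12.88 in HE2 and 8.42 in progenitors, and 14.63 in induced progenitors, within 0.2 of uninduced HE. That of Spi1 was 5.47, 8.76 and 10.81 without Dox and 8.59 in induced progenitors, near uninduced HE2. Of the 9 called erythroid genes 0 were called as fallen from HE to HE2 and 2 as risen, and whether this differs from the other rises was not tested.

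**Figure D5:**
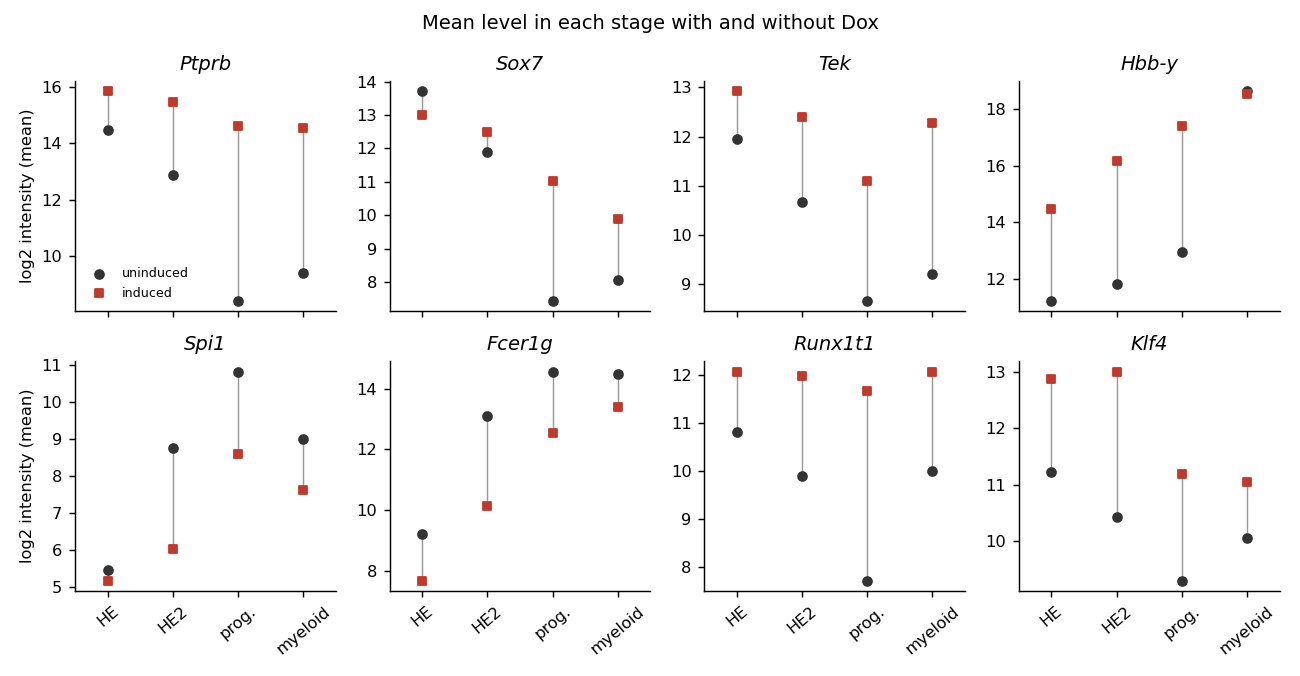
Mean log2 intensity (y axes, which differ between panels) of 8 genes in HE, HE2, progenitors (prog.) and myeloid progenitors (3 arrays a group, 2 a group in progenitors), uninduced in black and induced in red. Without Dox, Ptprb, Sox7 and Tek are lower in progenitors than in the other 3 stages, and Hbb-y is at 18.62 in uninduced myeloid progenitors and changes there by -0.11.

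The response was set against those of the other stages, which had their own uninduced arrays. Dox raised 714, 786 and 780 genes in HE, HE2 and myeloid progenitors (4.7, 5.17 and 5.13% of genes) and lowered 364, 312 and 180 (2.39, 2.05 and 1.18%). Of the 460 rises in progenitors, 307 also rose in HE2, which is 66.7% of the progenitor rises and 39.1% of the HE2 rises. The overlap was 259 genes with myeloid progenitors (56.3 and 33.2%) and 173 with HE (37.6 and 24.2%). Of the 107 falls, 54 also fell in HE2 (50.5 and 17.3%), 36 in myeloid progenitors (33.6 and 20.0%) and 24 in HE (22.4 and 6.59%). The rise was shared by all 4 stages for 108 genes and was called in progenitors alone for 98, and the corresponding numbers of falls were 6 and 40. A gene called in 1 stage only need not differ between stages, which takes the interaction term.

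Between progenitors and HE2 the Dox response differed for 98 genes (0.645% of those tested), 36 with the higher response in progenitors (0.237%) and 62 with the lower (0.408%). Of the 460 rises, 27 had a higher and 6 a lower response than in HE2 by this call, and of the 107 falls 1 had a lower response. The calls and the terms share the progenitor arrays, which tilts these counts, so nothing is read from their balance. At an adjusted P of at most 0.05, 22 of the 98 terms remained. Ptprb had one of the highest terms, 3.61 ± 0.44 (limma adjusted P = 0.00150), as its response was 6.21 in progenitors, 2.59 in HE2 and 1.36 in HE. It was already at 12.88 in uninduced HE2 and reached 15.47 there. Sox7 followed the same course, with a response of 3.57 against 0.59 in HE2 (term 2.98 ± 0.50, limma adjusted P = 0.0143). Wt1 had a term of 3.14 but an adjusted P of 0.114 by limma.

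The lowest terms against HE2 belonged to genes that rose in HE2 and not in progenitors. Hpgd, which degrades prostaglandins, read 10.16 and 9.54 uninduced and 9.60 and 8.10 induced in progenitors, with overlapping arrays, and was not called (limma adjusted P = 0.129). In HE2 its mean rose from 7.43 to 10.53, which gave a term of -4.10 ± 0.47 (limma adjusted P = 0.00129). Pla2g7, a phospholipase that degrades platelet-activating factor, had a term of -3.64, with a mean that rose from 6.53 to 10.53 in HE2 and a change of 0.36 ± 0.61 in progenitors (limma adjusted P of the term 0.0719). Pcp4l1 had a term of -3.24. Mt2 rose in progenitors by less than in HE2 (2.19 against 4.58).

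Against myeloid progenitors, whose induction ran for 12 h from a later day and whose arrays all lay on slide 3, the response differed for 228 genes (1.5% of those tested), higher in progenitors for 101 (0.664%) and lower for 127 (0.835%). Of the 9 called erythroid genes 5 had a higher response in progenitors and 0 a lower one, and of all 460 rises 63 had a higher and 8 a lower one. The rises were chosen on the same progenitor arrays, which tilts these counts, and nothing is read from their balance. Hbb-y had the highest term, 4.58 ± 0.50 (limma adjusted P = 0.000178), and Alas2 followed at 3.57 ± 0.68. Uninduced myeloid progenitors already gave 18.62 for Hbb-y and 15.09 for Alas2, and the changes with Dox there were -0.11 and 0.45. Tubb1 and the amino acid transporter gene Slc38a5 had terms of 3.33 and 3.29. The lowest terms were those of Serpinb1a, an inhibitor of granule proteases, and Lyve1, the hyaluronan receptor of lymphatic and early vessels, both at -3.99 (limma adjusted P = 0.000178 and 0.000610). Serpinb1a changed by -0.13 ± 0.33 in progenitors and rose by 3.86 in myeloid progenitors, and Lyve1 by 1.05 ± 0.39 and 5.04.

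Against both HE2 and myeloid progenitors the response was higher in progenitors for 11 of the 15202 genes tested and lower for 7. Both terms were called at unadjusted P and contain the same 4 progenitor arrays, so that they are not independent of each other. Among the 11 were Vwf, von Willebrand factor, and Vegfa. Vwf rose in progenitors from 9.08 and 9.44 to 10.42 and 11.13, with no overlap, whereas its changes were -2.86 in HE, -0.92 in HE2 and -1.23 in myeloid progenitors. Vegfa rose from 8.56 and 8.65 to 9.94 and 9.56 and changed by -0.72, -0.40 and -0.25 in the others. The calls of both genes in progenitors were lost under 6 of the 17 alternatives, among them the fit to the 4 arrays and 3 of the 4 fits without 1 array. The 7 include Ptprr, a phosphatase of MAP kinases that rose at every stage. It was not well above background on either uninduced progenitor array, so that its rise there is at least 6.74-fold and could be larger, and no order between the stages is read from its terms.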

How the data were processed

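RNA of 23 samples was read on Agilent 1-colour arrays with 62976 spots, each in 1 file. The authors deposited spot intensities as median pixel brightness with local background, read by Agilent Feature Extraction (version 10.7.3.1 per the file headers, 10.7.1.1 per the labels) and not normalized between arrays. A second deposited table holds log2 values of the authors, which served as an alternative. Its values correlated at 0.997 with the spot intensities of the same sample for all progenitor arrays and most others. For induced replicates 2 and 3 they correlated less well, at 0.982 in HE, 0.972 in HE2 and 0.989 in myeloid progenitors. The reason was not tested. Intensities were background corrected with normexp (offset 16), outlier spots removed, 3671 control spots left out and all 23 arrays quantile normalized together, with limma 3.58.1 in R 4.3.3. Of 55681 probes, 26582 were given a symbol by looking up their accession in RefSeq (GRCm38.p6), which gave 20145 genes. Where a gene had several probes, the probe with the highest mean intensity stood for it, and a gene was tested where any of the 23 arrays reached 6.5 (log2).

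A linear model with 1 mean per group was fitted to 22 arrays (14 residual degrees of freedom), with empirical Bayes variances and Benjamini-Hochberg adjustment over 15202 genes. Responses of stages were compared by interaction terms. The genes named were the 12 largest called rises and falls, the 4 highest and lowest called terms against HE2 and against myeloid progenitors, and called or defining genes of 31 lists. Members and lists were chosen with earlier results of these data known. Scripts were tested on simulated data. Intensity over background and the number of arrays limit the precision, and no spot was saturated. Other settings of background, normalization, filter, probe choice, threshold, arrays fitted and blocks were tried. Among listed and named called genes, 13 had another probe, and 14 of these 18 other probes changed in the same direction. Some listed genes that are counted are not reported by name here.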

Additional observations from a re-analysis of the deposited data

Results flagged for a closer look

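The Dox response of progenitors differed from that of HE2 for 98 genes by the interaction term, and the named ones are given here with both responses where these were not yet described. Col1a1, a collagen chain, had the highest term, 3.79, with a change of 0.53 in progenitors and -3.25 in HE2 (limma adjusted P = 0.0795). Ptprb followed at 3.61 and Igfbp2, which binds insulin-like growth factors, at 3.20, the latter with changes of 0.38 and -2.82. Sema3f (1.98) was called as risen in both stages, and its term had a limma adjusted P of 0.146. The change of Wt1 (3.14) was called in progenitors and not in HE2, where it was 1.67. The lowest terms were those of Hpgd (-4.10), Pla2g7 (-3.64), Pcp4l1 (-3.24) and Cygb, a globin of non-erythroid cells (-2.58, with changes of 0.25 and 2.83).

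Against myeloid progenitors the response differed for 228 genes. Hbb-y (4.58), Alas2 (3.57), Tubb1 (3.33), Slc38a5 (3.29) and Itga8 (2.73) had higher responses in progenitors. Slc9a3r2, a scaffold protein (-3.02), Lyve1 (-3.99), Serpinb1a (-3.99) and Ccl4 (-2.31) had lower ones. The fitted term of Ptprr was -3.01, but its rise in progenitors is only a lower bound, since it was not well above background on the uninduced arrays, and the term shows no order. Slc9a3r2 changed by -0.42 in progenitors and 2.60 in myeloid progenitors (limma adjusted P of the term 0.00606). The start and length of induction, the culture and the slide differ between these stages as well, and their part in the terms cannot be told apart from the stage.

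Probes without a matched symbol also responded. Of 29099 such probes 15070 could be tested, and 200 rose (1.33%) and 33 fell (0.219%) with Dox in progenitors.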

How the results depend on the processing

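The 460 rises and 107 falls, the 98 terms against HE2 and the 228 against myeloid progenitors were recomputed under each alternative. Scaling to the 75th percentile left 138 terms against myeloid progenitors and moved the median change of all genes from -0.04 to -0.19. Normalization without the myeloid arrays left 62 terms against HE2. An adjusted P of at most 0.05 with 2-fold gave 174 falls and 22 terms against HE2, and a 2-fold change alone gave 891 rises, 524 falls, 1203 and 1530 terms. The fit to the groups compared alone gave 201 rises, 15 falls and 46 terms against HE2. With slide as a block there were 306 rises, 25 falls and 64 terms against HE2. Leaving out 1 array at a time gave 280 to 599 rises, 31 to 289 falls, 55 to 310 terms against HE2 and 144 to 486 against myeloid progenitors. The lowest number of falls came without induced array 2 and the highest numbers of all 4 counts without induced array 1, which leaves induced array 2 alone and assumes that it varies as other groups do. Rises made up 81.1% of the calls, 67.5 to 93.1% under the alternatives with a P threshold and 63.0% with a 2-fold change alone. The replicate numbers are not stated to pair the arrays, and deviations of same-numbered arrays correlated at 0.23 over 2 pairs. With the replicate number as a block, 453 rises, 107 falls, 94 terms against HE2 and 242 against myeloid progenitors were called. No called gene named here changed sign under any alternative. With 48.8% of the spots of induced array 2 well above background, changes of dim genes were the least certain.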
